A study of Sus scrofa with 6 samples.

Results

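Pig xenoantigen glycosyltransferase genes encode enzymes that place, or compete to place, the outermost sugars on pig cell surfaces, and 7 of them were chosen by name: A4GALT, GGTA1, CMAH, B4GALNT2, FUT1, ST3GAL1 and ST6GAL1. A4GALT was taken by its Ensembl identifier and the others by their symbols. Of 25149 genes listed in the files, 4 were matched to these names. Of these, 3 had counts and were tested (A4GALT, CMAH and ST3GAL1), and the fourth, ST6GAL1, had 0 counts in all 6 libraries. GGTA1, B4GALNT2 and FUT1 were matched to no row and were not analysed here.

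RNA was sequenced in bulk from neonatal pig Sertoli cells (NPSC), the nurse cells of the testis tubule, which are studied as cells that survive transplantation between species. All cells were of WT genotype, isolated from testes of Duroc-Landrace pigs of 3 litters, aged 3 to 5 days, and grown in DMEM with 10% FBS. In 3 libraries, called baseline NPSC, further DMEM had been added to the culture. In the other 3, called complement NPSC, pooled human AB serum with its complement preserved had been added 1:1 for 90 min. Each library came from its own plate. Since the sources used here do not say which plate held which litter, the p-values below measure the spread between these plates, which may be technical.

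Antibodies and complement of human serum bind pig cells mainly through sugars that human cells do not make. GGTA1 makes the alpha-gal epitope, B4GALNT2 an Sda-like antigen, and CMAH converts the sialic acid donor CMP-Neu5Ac to CMP-Neu5Gc, a step that humans have lost. A4GALT adds galactose to lactosylceramide to make the glycolipid Gb3, the start of the globo series and of P blood group antigens. FUT1 (H antigen), ST3GAL1 (sialylated core O-glycans) and ST6GAL1 (sialylated N-glycans) cap acceptors with fucose or sialic acid, and so can cover or compete for the sites where xenoantigens are built.

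The libraries held between 3641518 and 8371923 counts on genes, with the lowest totals in complement NPSC replicates 1 and 2. Olfactory receptor genes, which encode the smell receptors of the nose and of which some are also known from male germ cells, served as a yardstick of low counts. Counts per kb of exon pooled over 48 such genes, after scaling by library size and TMM factor (CPM), were 2.12, 1.33 and 1.30 in baseline NPSC against 3.51, 3.85 and 1.68 in complement NPSC. Complement NPSC replicates 1 and 2 therefore stood apart from the other 4 libraries on this measure, and the log2 fold changes of the 3 tested enzyme genes are given with and without them. Without them the complement arm is 1 library, assumed to vary like the baseline libraries. The expected background of a gene below is its exon length times the unscaled counts per kb over the 48 olfactory receptor genes in the same library. The Sertoli cell label was checked on the 10 of 12 listed markers that were matched, all with counts in every library. Their summed level ran from 5242 to 7997 CPM in baseline NPSC and from 3443 to 4163 CPM in complement NPSC, without overlap. Most of this sum was CLU, with 3592 to 5996 CPM in baseline NPSC against 2184 to 2862 CPM in complement NPSC. Of the 10, 5 (WT1, GATA4, INHA, CLU and CLDN11) were lower in every complement library than in any baseline library, where 8.14% of all genes tested were. DHH and DMRT1 had positive log2 fold changes (0.63 and 0.12), and 0 of the 10 passed the test. Markers of other testis cells were present too: their summed levels in baseline and complement NPSC ran from 2458 to 3722 and from 1912 to 3569 CPM for peritubular myoid cells, from 936 to 1139 and from 713 to 760 CPM for Leydig cells (also without overlap), and from 367 to 556 and from 256 to 608 CPM for endothelial cells. Macrophage, germ cell and erythroid markers came to 90.4 CPM in sum or less in every library. Of all these markers 0 passed the test with all 6 libraries. Without complement replicate 3, 4 Sertoli markers passed as lower (WT1, GATA4, CLDN11 and TJP1) and 1 macrophage marker as higher (MARCO), where 10.1% of all genes were called, and without baseline replicate 1 the erythroid marker HBB passed as lower. In bulk RNA, fewer Sertoli cells and less RNA per cell cannot be told apart. The part of either, and of the other cell types, in the results below was not tested.

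Levels were compared between the enzymes as CPM per kb of exon. ST3GAL1 had the highest level, with 30.0, 32.5 and 32.0 CPM per kb in baseline NPSC against 23.8, 23.0 and 30.8 in complement NPSC. A4GALT followed with 26.7, 23.2 and 25.0 in baseline NPSC against 20.6, 21.6 and 27.5 in complement NPSC. The order of these neighbours held in 6 of 6 libraries. Their ranges were separate in baseline NPSC and overlapped in complement NPSC. CMAH was lowest, with 3.20, 3.27 and 2.28 CPM per kb in baseline NPSC against 8.23, 6.76 and 3.34 in complement NPSC. Its range stayed under that of A4GALT in both conditions. Among the 17512 genes tested, the level averaged over the 6 libraries was at percentile 82.6 for ST3GAL1, 78.2 for A4GALT and 19.8 for CMAH. The level of A4GALT rests on a gene model of 1080 bp, a multiple of 3, which may leave out untranslated sequence, whereas the models of CMAH (2083 bp) and ST3GAL1 (6371 bp) are not multiples of 3.

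**Figure D1:**
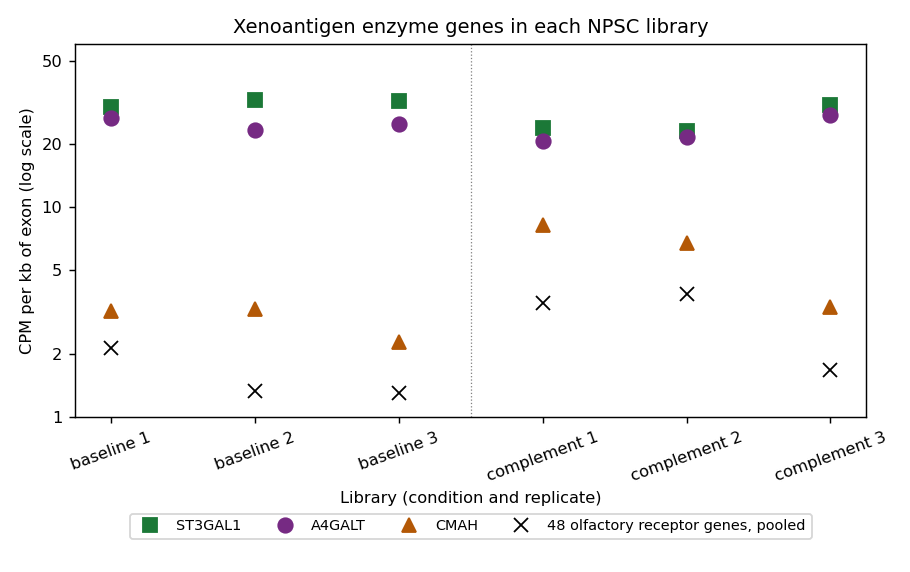
Level of each enzyme gene in each of the 6 NPSC libraries, in CPM per kb of exon on a log axis, with baseline NPSC to the left and complement NPSC to the right of the dotted line and the pooled density of 48 olfactory receptor genes as crosses. ST3GAL1 and A4GALT lie between 20.6 and 32.5, and CMAH lies nearer to the crosses, from 2.28 in baseline replicate 3 to 8.23 in complement replicate 1.

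By the edgeR quasi-likelihood test with Benjamini-Hochberg adjustment over all genes tested, 0 of the 3 enzyme genes passed an adjusted p of 0.05, against 0.103% of all genes (18 of 17512). DESeq2 also called 0 of the 3. At an unadjusted p under 0.05 there was 1, CMAH, against 15.2% of all genes. The signs differed among the 3: CMAH had a positive log2 fold change (LFC, complement over baseline), and A4GALT and ST3GAL1 had negative values whose intervals hold 0.

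A4GALT, the Gb3 synthase (ENSSSCG00000026962), lies on chromosome 5 from 3561303 to 3562382 on the plus strand as a single exon, in the unnamed pig build of the files, and overlaps no other listed gene. It had 199, 162 and 205 counts in baseline NPSC against 100, 98 and 171 in complement NPSC. After scaling these became 28.8, 25.1 and 27.0 CPM in baseline NPSC (mean 27.0 ± 1.89, SD, n = 3) against 22.3, 23.4 and 29.7 CPM in complement NPSC (mean 25.1 ± 4.01, SD, n = 3). The groups overlapped: complement replicates 1 and 2 lay under all baseline libraries and complement replicate 3 lay above them. The LFC was −0.10 (SE 0.21, 95% interval −0.55 to 0.35, adjusted p = 0.799), which as a fold runs from 0.685 to 1.27. The baseline libraries varied by a CV of 6.99%, no more than the 7.28% that counting error alone gives, and the complement libraries by 15.99% against 9.02%. Without complement replicates 1 and 2, with 1 complement library left, the LFC was 0.11, and with the log2 olfactory receptor density as a covariate it was 0.04.

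Matched genes of the glycolipid path before and after A4GALT had counts in every library, apart from 1 on an unplaced scaffold. Of 10 symbols listed for the glycosphingolipid backbone, 5 were matched. UGT8, B3GALNT2, GBGT1, ST8SIA1 and ST8SIA5 were not matched and have no value here. Upstream, UGCG, which makes glucosylceramide, had 29.9, 47.6 and 38.2 CPM per kb in baseline NPSC against 31.0, 39.0 and 55.2 in complement NPSC. The groups overlapped, with an LFC of 0.12 (SE 0.25, adjusted p = 0.805) that was −0.17 without complement replicate 3 and 0.59 with the covariate. B4GALT5, a lactosylceramide synthase and so the supplier of the A4GALT acceptor, had 85.9, 64.7 and 69.3 CPM per kb in baseline NPSC against 62.7, 43.5 and 71.3 in complement NPSC (LFC −0.31, SE 0.22, adjusted p = 0.466). Its relative B4GALT6 was far lower, between 2.19 and 3.44 CPM per kb in all 6 libraries, with an expected background of 72.8% of its counts.

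B3GALNT1, ST3GAL5 and B3GNT5, which use Gb3 or share the A4GALT acceptor, had lower levels than A4GALT in every library. B3GALNT1, which extends Gb3 to globoside, had 3.75, 4.72 and 5.45 CPM per kb in baseline NPSC against 3.34, 4.44 and 4.94 in complement NPSC, with an expected background of 46.8% of its counts. The level of A4GALT was 5.55 ± 1.38 times that of B3GALNT1 in baseline NPSC and 5.54 ± 0.651 times in complement NPSC (SD, n = 3 each, exact permutation p = 1, two-sided). ST3GAL5, which turns the same lactosylceramide into the ganglioside GM3, had 6.005, 7.33 and 5.93 CPM per kb in baseline NPSC against 6.58, 9.88 and 8.02 in complement NPSC (LFC 0.34, SE 0.35, adjusted p = 0.585). A4GALT was above ST3GAL5 in 6 of 6 libraries, by 3.95 ± 0.683 times in baseline NPSC and 2.92 ± 0.647 times in complement NPSC (SD, n = 3 each, exact permutation p = 0.2, two-sided). B3GNT5, which draws lactosylceramide into the lacto series, lay between 3.30 and 5.68 CPM per kb. B4GALNT1, which leads to complex gangliosides, was listed at 0 in all libraries and is treated with ST6GAL1 below.

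**Figure D2:**
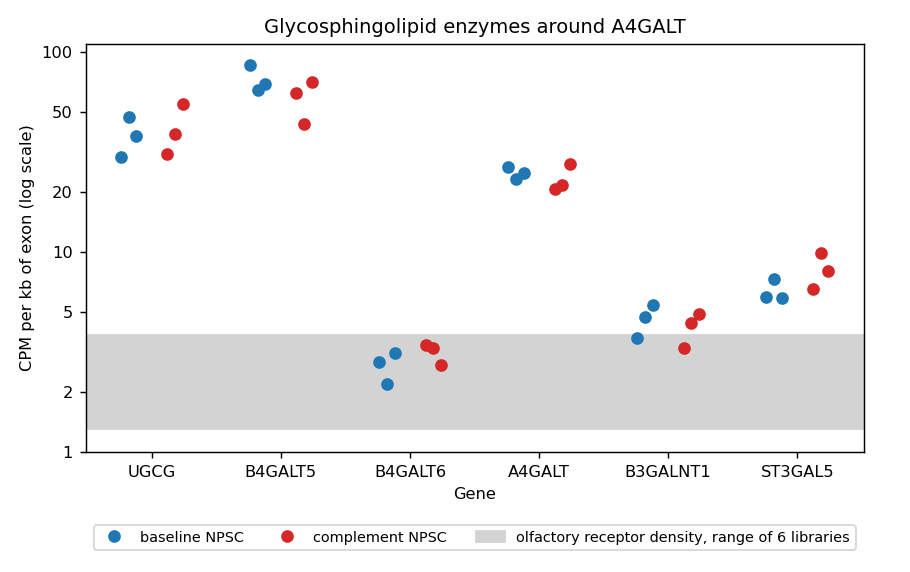
Level of the glycolipid enzymes before and after A4GALT in CPM per kb of exon on a log axis, with 1 point per library, 3 baseline NPSC in blue and 3 complement NPSC in red, and a grey band over the range of olfactory receptor density in the 6 libraries (1.30 to 3.85). UGCG, B4GALT5 and A4GALT sit between 20.6 and 85.9, all above the band, whereas B4GALT6 sits inside it and B3GALNT1 lies across its upper edge (3.34 to 5.45).

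CMAH, the hydroxylase behind Neu5Gc (ENSSSCG00000001099), lies on chromosome 7 from 21032289 to 21109183 on the minus strand, with 15 exon intervals, and overlaps no other listed gene. It had few counts: 46, 44 and 36 in baseline NPSC against 77, 59 and 40 in complement NPSC. After scaling these were 6.67, 6.81 and 4.74 CPM in baseline NPSC (mean 6.07 ± 1.15, SD, n = 3) and 17.1, 14.1 and 6.95 CPM in complement NPSC (mean 12.7 ± 5.23, SD, n = 3). Complement replicates 1 and 2 were high, and complement replicate 3 was barely above the highest baseline library, so the groups did not overlap. The same held, with complement higher, for 8.95% of all genes tested. With CPM by library total in place of TMM scaling, complement replicate 3 (6.25 CPM) fell under baseline replicate 1 (6.77 CPM) and the groups overlapped.

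The LFC of CMAH was 1.06 (SE 0.36, 95% interval 0.29 to 1.83), a fold of 2.08 with bounds of 1.22 and 3.55. It ranked 655 among the 17512 genes by p and did not pass the adjustment (edgeR adjusted p = 0.271). Without complement replicate 3 it passed, with an LFC of 1.34 (adjusted p = 0.0382), in a fit in which 6.26% of all genes were called higher. Without complement replicates 1 and 2, with 1 complement library left, the LFC was 0.17.

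The counts of CMAH were set against those expected from the olfactory receptor density. Its expected background was 30.5, 17.9 and 20.6 counts in baseline NPSC against 32.8, 33.6 and 20.1 in complement NPSC, in sum 51.5% of its counts. Of the 48 olfactory receptor genes, 38, 44 and 39 had a lower level than CMAH in the baseline libraries and 47, 41 and 43 in the complement libraries. For A4GALT and ST3GAL1 it was all 48 in every library, with an expected background of 8.63% and 7.18% of their counts. Divided by the olfactory receptor density of the same library, the level of CMAH was 1.51, 2.46 and 1.75 in baseline NPSC against 2.35, 1.75 and 1.99 in complement NPSC. The means were 1.90 ± 0.493 and 2.03 ± 0.298 (SD, n = 3 each, exact permutation p = 0.7, two-sided, with 0.1 the smallest p that 3 against 3 allows). The same division moved the mean of A4GALT from 16.4 ± 3.41 in baseline NPSC to 9.29 ± 6.14 in complement NPSC. That of ST3GAL1 moved from 21.0 ± 5.96 to 10.4 ± 6.93 (SD, n = 3 each, exact permutation p = 0.2 for both). The divisor was highest in complement replicates 1 and 2, so the permutation p of 0.7 does not show CMAH to be unchanged. On this scale the groups overlapped for each gene, and with the density as a covariate the LFC of CMAH was 0.32 (adjusted p = 0.953). After subtraction of the expected background it was 1.55 (adjusted p = 0.486), so the alternatives differ in size but not in sign.

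Genes that supply or use sialic acid were set beside CMAH. NANS, which makes Neu5Ac, had 14.6, 20.7 and 23.0 CPM per kb in baseline NPSC against 19.1, 19.9 and 17.96 in complement NPSC (LFC −0.04, SE 0.23, adjusted p = 0.941). SLC35A1, the Golgi carrier of CMP-sialic acid, had 14.5, 20.8 and 19.1 CPM per kb in baseline NPSC against 8.18, 9.66 and 14.2 in complement NPSC. Each complement library was under each baseline library, by a narrow margin for complement replicate 3 (LFC −0.76, SE 0.25, adjusted p = 0.269). Without complement replicate 3, SLC35A1 passed the test with an LFC of −1.05 (adjusted p = 0.0385), in a fit in which 10.1% of all genes were called. With the olfactory receptor covariate its LFC was −0.30. Both were above CMAH in the 3 baseline libraries, while in complement replicate 1 SLC35A1 and CMAH had like levels (8.18 and 8.23 CPM per kb). The rest of that list (GNE, NANP and CMAS) was not matched.

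ST3GAL1 (ENSSSCG00000005943), which sialylates the galactose of core O-glycans, lies on chromosome 4 from 7703297 to 7776990 on the plus strand, with 7 exon intervals after merging. It shares exon sequence with 1 other listed gene (ENSSSCG00000031041), so reads there could be split or dropped, and its values are uncertain to that extent. It had 1318, 1337 and 1547 counts in baseline NPSC against 680, 614 and 1130 in complement NPSC. These were 191, 207 and 204 CPM in baseline NPSC (mean 201 ± 8.42, SD, n = 3) and 151, 146 and 196 CPM in complement NPSC (mean 165 ± 27.5, SD, n = 3). Complement replicates 1 and 2 were low, and complement replicate 3 lay within the baseline range, so the groups overlapped. By library total all 3 complement libraries (173, 169 and 176 CPM) were under all 3 baseline libraries (194, 187 and 185 CPM).

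The LFC of ST3GAL1 was −0.28 (SE 0.21, 95% interval −0.74 to 0.17, adjusted p = 0.480), a fold of 0.821 with bounds of 0.600 and 1.13. It was negative in all 16 settings tried and called in none, with a range from −0.46 without complement replicate 3 to −0.05 with the olfactory receptor covariate. Without complement replicates 1 and 2, with 1 complement library left, it was −0.06. The CV was 4.20% in baseline NPSC and 16.7% in complement NPSC, against 2.67% and 3.52% from counting error.

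Ratios within a library do not depend on the scaling. ST3GAL1 was 1.12, 1.399 and 1.28 times A4GALT in baseline NPSC and 1.15, 1.06 and 1.12 times in complement NPSC (exact permutation p = 0.2, two-sided). ST3GAL1 over CMAH was 9.37, 9.93 and 14.0 in baseline NPSC against 2.89, 3.40 and 9.24 in complement NPSC, with every complement library lower (exact permutation p = 0.1, the smallest possible, and 0.4 after adjustment over the 8 ratios computed). The value of complement replicate 3 was close to the baseline range. Of the 8 ratios, 0 had an adjusted p under 0.4.

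Among the other sialyltransferases, 8 of 18 listed genes were matched and tested, and 0 were called in either direction. ST3GAL4, which sialylates N-glycan and glycolipid galactose, had a level next to that of ST3GAL1, with 26.8, 31.6 and 32.6 CPM per kb in baseline NPSC against 24.7, 19.1 and 24.3 in complement NPSC. Its complement libraries were all under its baseline libraries, as for 8.14% of all genes (LFC −0.42, SE 0.20, adjusted p = 0.331). ST3GAL1 over ST3GAL4 was 1.04 ± 0.0686 in baseline NPSC and 1.14 ± 0.161 in complement NPSC (SD, n = 3 each, exact permutation p = 0.4, two-sided). ST6GALNAC4, which adds a second sialic acid to the ST3GAL1 product, had 33.5, 27.3 and 38.7 CPM per kb in baseline NPSC against 26.5, 19.5 and 35.0 in complement NPSC (LFC −0.29, SE 0.23, adjusted p = 0.493). Its LFC was −0.55 without complement replicate 3 and 0.0005 with the olfactory receptor covariate. ST6GALNAC1, ST6GALNAC3 and ST8SIA6 were higher in every complement library than in any baseline library, as were 8.95% of all genes, with LFC of 0.61, 0.54 and 0.91 and adjusted p of 0.312, 0.438 and 0.367. Their expected background was 23.1%, 82.1% and 65.1% of their counts.

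ST6GAL1 (ENSSSCG00000025770) is listed with 9 exon intervals and 3773 bp of exon from 15396 to 44627 on the plus strand of the unplaced scaffold GL894735.1. It had 0 counts in all 6 libraries, where the expected background for its length was 32.4 to 60.9 counts per library. All 2451 genes on unplaced scaffolds had 0 counts in every library, against 3.70% of the 22698 other genes, so the 0 gives no level for ST6GAL1. If reads on the scaffold had been counted, a count of 0 would allow at most 0.358 to 0.824 CPM (3 counts of each library total). The same holds for B4GALNT1, for the fucose kinase FCSK, for the lysosomal galactosidase GLB1, and for the markers MYH11 and CYP11A1. ST6GAL2, the relative of ST6GAL1 on a placed chromosome, had 49, 27 and 47 counts in baseline NPSC against 44, 45 and 40 in complement NPSC. Its levels were 4.53, 2.67 and 3.95 CPM per kb in baseline NPSC against 6.25, 6.85 and 4.43 in complement NPSC (LFC 0.64, SE 0.34, adjusted p = 0.364), with an expected background of 46.5% of its counts. The groups overlapped through complement replicate 3.

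Of 121 further symbols listed for glycan synthesis, donor supply and removal, older spellings included, 78 were matched, 73 passed the filter on low counts and 0 were called in either direction. By DESeq2 the count was also 0. At an unadjusted p under 0.05 there were 3 with a positive LFC (ST6GALNAC1, GALNT5 and MGAT5B) and 2 with a negative one (SLC35A1 and HEXA), 5 of 73 where all genes gave 15.2%. The median LFC of the 73 was −0.07, beside 0.02 over all genes tested, with a range from −0.76 (SLC35A1) to 1.13 (GALNT5). Between the conditions 4 of the 73 did not overlap with complement higher and 7 with complement lower, where all genes gave 8.95% and 8.14%. With the olfactory receptor covariate 24 of the 73 LFC turned sign, 14 of them from negative to positive. Of all 17512 genes 6957 turned sign, 3394 of them from negative to positive. Without complement replicate 3, 5 of the 73 turned sign and 30 kept it with an LFC over 1.5 times larger. Of all 17512 genes these were 1226 and 6286. Without complement replicate 3, 2 of 74 tested were called (SLC35A1 and GALNT5), where all genes gave 10.1%. Without baseline replicate 1, 1 of 73 was called (MGAT5B, LFC 1.39, edgeR adjusted p = 0.0293), where all genes gave 1.8%.

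Of 13 listed galactosyltransferases of the acceptor chains, 9 were tested, and the others, B4GALT1 among them, were not matched. B4GALT2, which builds the LacNAc acceptor that GGTA1 and FUT1 share, had 73.1, 70.7 and 79.5 CPM per kb in baseline NPSC against 53.2, 49.1 and 75.6 in complement NPSC. The LFC was −0.32 (SE 0.20, adjusted p = 0.414), and complement replicate 3 again lay within the baseline range. Without complement replicate 3 the LFC was −0.57, and with the olfactory receptor covariate it was −0.04. B3GALT6, which acts on the linker of proteoglycans, had 9.47 ± 1.36 CPM per kb in baseline NPSC and 7.27 ± 0.782 in complement NPSC (SD, n = 3 each) without overlap, and an LFC of −0.38 (SE 0.31, adjusted p = 0.512).

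For fucosylation, 7 genes were tested, with a median LFC of 0.02. FUT8, which fucosylates the N-glycan core, had 21.5 ± 4.31 CPM per kb in baseline NPSC and 17.95 ± 6.73 in complement NPSC (LFC −0.26, SE 0.24, adjusted p = 0.567). Its LFC was −0.64 without complement replicate 3 and 0.21 with the covariate. SLC35C2, a carrier linked to GDP-fucose use, had 18.1 ± 1.83 and 18.3 ± 1.99 CPM per kb (SD, n = 3 each, LFC 0.02, SE 0.19). FUT2, which makes the H antigen in secretory tissue and is a relative of FUT1, had 47, 15 and 24 counts in baseline NPSC against 24, 35 and 41 in complement NPSC. Its levels overlapped between groups (LFC 0.75, SE 0.43, adjusted p = 0.390), with an expected background of 57.3% of its counts.

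Of 16 tested genes of GalNAc transfer and O-glycan cores, 11 had a positive LFC, with a median of 0.22. With the olfactory receptor covariate the median was 0.02. C1GALT1 and C1GALT1C1, which make the core acceptor of ST3GAL1, were not matched. GALNT2 and GALNT1, which start O-glycans, had levels of 49.7 ± 6.70 and 28.7 ± 2.58 CPM per kb in baseline NPSC against 44.2 ± 10.8 and 23.9 ± 6.25 in complement NPSC (SD, n = 3 each). Their LFC were −0.17 and −0.26 (SE 0.24 and 0.22), −0.41 and −0.53 without complement replicate 3, and 0.22 and 0.10 with the covariate. GALNT5, of the same family, had 37, 29 and 36 counts in baseline NPSC against 69, 51 and 27 in complement NPSC. Complement replicates 1 and 2 were high and complement replicate 3 was within the baseline range (LFC 1.13, SE 0.40, adjusted p = 0.276). The expected background of GALNT5 was 79.1% of its counts, and with the covariate its LFC was 0.15. Without complement replicate 3 it passed the test with an LFC of 1.47 (adjusted p = 0.0382).

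N-glycan branching was tested with 8 genes, 4 positive and 4 negative, with a median LFC of −0.03. MGAT1, which opens the complex N-glycan path, had 50.1 ± 4.79 CPM per kb in baseline NPSC and 41.3 ± 9.69 in complement NPSC, and MGAT4B 48.6 ± 5.02 and 40.2 ± 6.27 (SD, n = 3 each). Their LFC were −0.28 and −0.27 (SE 0.21 and 0.20), −0.52 and −0.43 without complement replicate 3, and 0.06 and −0.06 with the covariate. MGAT5B, a branching enzyme best known from brain, had 10.0, 5.80 and 2.67 CPM per kb in baseline NPSC against 12.0, 13.8 and 7.54 in complement NPSC. Baseline replicate 1 was high for its group, and the groups overlapped (LFC 0.85, SE 0.36, adjusted p = 0.306). With the covariate its LFC was 0.10.

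All 10 listed genes of nucleotide sugar supply were matched and tested. GFPT2 and UAP1, which lead to UDP-GlcNAc, had 28.2 ± 2.26 and 27.0 ± 5.77 CPM per kb in baseline NPSC against 30.8 ± 1.38 and 29.8 ± 5.02 in complement NPSC (SD, n = 3 each, LFC 0.13 and 0.15). The LFC of UAP1 was 0.01 without complement replicate 3 and 0.44 with the olfactory receptor covariate. SLC35A3, the Golgi carrier of UDP-GlcNAc, had 14.1, 22.5 and 20.9 CPM per kb in baseline NPSC against 13.0, 14.1 and 12.6 in complement NPSC (LFC −0.53, SE 0.26, adjusted p = 0.340). SLC35A2, the carrier of UDP-galactose that all the galactosyltransferases need, was lower in each complement library than in any baseline library (25.5 ± 1.93 and 20.3 ± 2.38 CPM per kb, SD, n = 3 each, LFC −0.33, adjusted p = 0.392), as were 8.14% of all genes.

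Of 10 tested genes that remove sugars, 8 had a negative LFC, with a median of −0.22. GLA and NEU4, of the same list, were not matched. HEXA, a subunit of the hexosaminidase that degrades GM2 and globoside, had 27.8, 28.7 and 32.8 CPM per kb in baseline NPSC against 21.3, 20.5 and 23.3 in complement NPSC (LFC −0.46, SE 0.19, adjusted p = 0.302). It was lower in all 3 complement libraries without overlap, as were 3 of the 10 genes and 8.14% of all genes. NEU2, a sialidase, had 6.21 ± 2.27 CPM per kb in baseline NPSC and 9.51 ± 3.00 in complement NPSC (SD, n = 3 each, LFC 0.61, SE 0.36, adjusted p = 0.398).

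**Figure D3:**
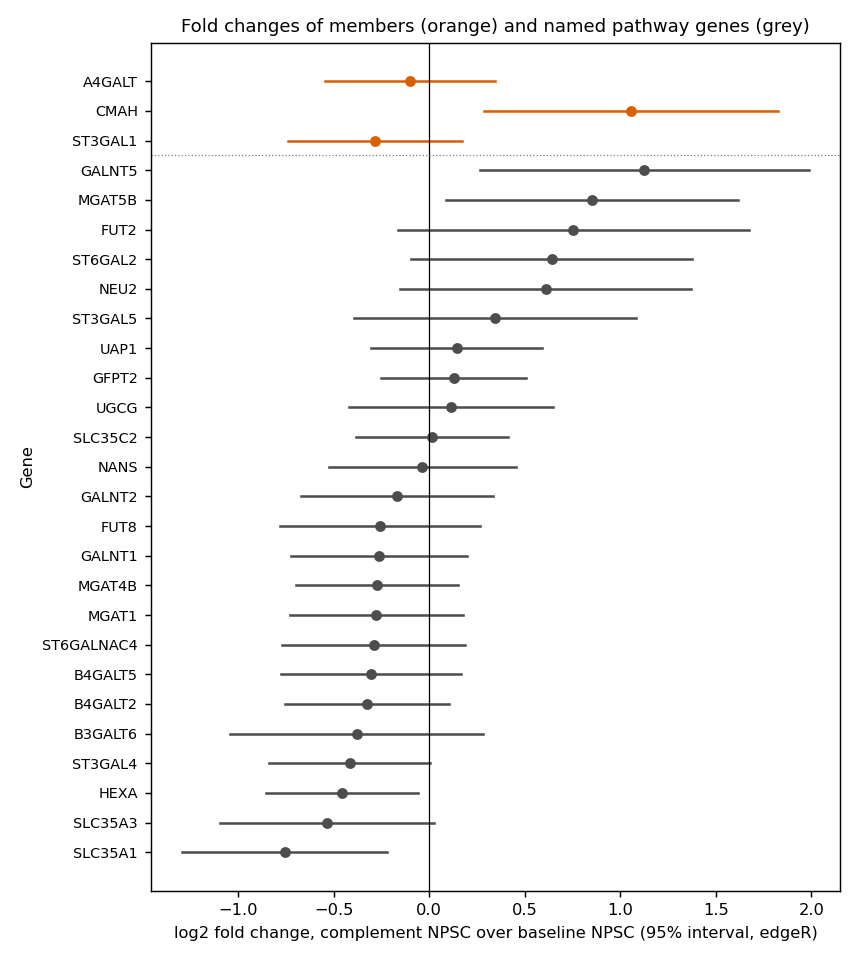
LFC of complement over baseline NPSC with its 95% interval from edgeR for the 3 tested enzyme genes (orange) and for pathway genes named by rule (grey, in order of LFC). The intervals of CMAH, GALNT5, MGAT5B, HEXA and SLC35A1 leave out 0 before adjustment, and 0 of the genes shown passed it.

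Pathway genes were also set out by their expected background. Among the 37 with an expected background at or under the median of 16.3% of counts, 29 had a negative LFC and the median was −0.18. Among the other 36, 27 had a positive LFC and the median was 0.24. All genes tested, parted in the same way at their own median of 20.7%, gave 26.7% positive with a median of −0.19 and 76.3% positive with a median of 0.40. A4GALT and ST3GAL1 lay on the low side and CMAH on the high side, each with the sign most genes of its side had. This division was chosen after the data were seen and is given as a description.

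**Figure D4:**
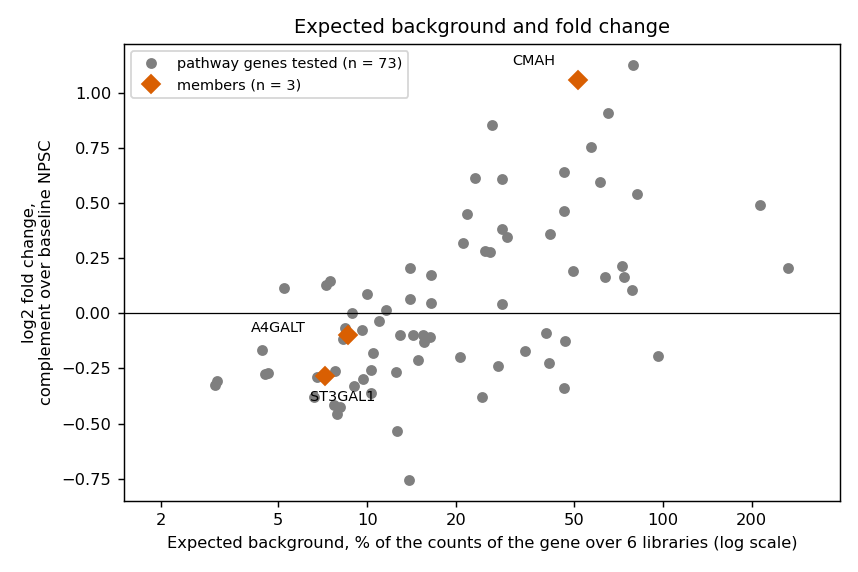
LFC of complement over baseline NPSC against the expected background as a percent of the counts of each gene over the 6 libraries, on a log axis, for 73 pathway genes (grey) and 3 enzyme genes (orange, named). A4GALT at 8.63% and ST3GAL1 at 7.18% lie under 0, and CMAH at 51.5% lies at 1.06, among genes that are mostly positive.

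The genes most like each enzyme gene across the 6 libraries were ranked by Pearson's r of log2 CPM over 9992 genes with a symbol and a mean of at least 5 CPM. The points share libraries, depth and scaling, so r is a description here. For A4GALT the closest were ST6GALNAC2 (r = 0.987), a sialyltransferase, and TNK2 (r = 0.983), a kinase. For CMAH they were NR1I2 (r = 0.997), a nuclear receptor known from liver, and FAT2 (r = 0.996), a large cadherin, and their LFC were 0.84 for both. For ST3GAL1 they were AUP1 and GCN1 (r = 0.998 for both). An r over 0.9 was reached by 97 genes for A4GALT, 701 for CMAH and 1254 for ST3GAL1.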

How the data were processed

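The authors deposited raw read counts per Ensembl pig gene, without normalization, beside the intervals of its exons and their total length. The submitters' processing notes name Trimmomatic 0.36, STAR 2.5.2b and featureCounts of Subread 1.5.2. The genome build, annotation release and strand setting are not given in the sources used here. Symbols came from a table of gene names that paired 11804 of the 25149 identifiers.

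Counts were tested with edgeR 4.0.16 in R 4.3.3 (filterByExpr, TMM, quasi-likelihood F-test, no covariate), with Benjamini-Hochberg adjustment over the 17512 genes tested and calls at an adjusted p under 0.05. The study used DESeq2; here DESeq2 1.42.0 was an alternative. Log2 CPM had a prior count of 2. Single values were compared with a two-sided exact permutation test. On simulated counts for complement against baseline NPSC (17138 genes), edgeR recovered 177 of 190 genes changed by an LFC of 2, with 16 unchanged genes called. The simulated noise was independent between genes, and this LFC is larger than that of any enzyme gene. Recovery of smaller changes was not measured. Alternatives were other normalizations, tests and count filters, a replicate block, left-out libraries, and the olfactory receptor density as a covariate or subtracted. The covariate was the log2 of the density by library total, without TMM factors. Before the log this density was 2.15, 1.20 and 1.18 in baseline NPSC against 4.01, 4.43 and 1.51 in complement NPSC. It is therefore partly confounded with the condition, which limits every LFC fitted with it.

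Enzyme genes, pathway lists and markers were chosen with earlier results of these data known. Named pathway genes were, in each list, the 2 with the highest mean CPM per kb and the 1 with the largest LFC at a mean of at least 5 CPM. A gene that this rule names is not reported here. Others named for a small count, for lying apart or for their place in the glycolipid path were chosen after their values were seen. The limit given for 0 counts covers counting error only. Replicates were compared: their counts differed by 3.47 to 11.8 times the sampling noise (chi-square per degree of freedom), so none was the same library deposited again. Plots were drawn with matplotlib 3.10.9.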

Additional observations from a re-analysis of the deposited data

How the results depend on the processing

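Over 16 settings CMAH kept a positive LFC and ST3GAL1 a negative one, and A4GALT was called in 0. The LFC of A4GALT, near 0, turned positive with upper-quartile normalization (0.0023), without complement NPSC replicates 1 and 2 (0.11), with the olfactory receptor covariate (0.036) and after subtraction of the expected background (0.047). For upper-quartile normalization the median LFC of all genes moved to 0.13. Leaving out 1 library at a time gave LFC from −0.27 to −0.02 for A4GALT, from 0.80 to 1.34 for CMAH and from −0.46 to −0.22 for ST3GAL1. It gave 0 to 1 enzyme genes called, 0 to 2 pathway genes and 9 to 1855 of all genes, the highest without complement NPSC replicate 3 (1855) and the next without baseline NPSC replicate 1 (327). All genes called were 68 with DESeq2, 31 without a count filter, 63 with the covariate and 31 after subtraction, against 18. The cause was not tested.

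Whether libraries of the same number share a litter is not given in the sources used here, so the numbers were not treated as pairs. The deviations of replicates 1, 2 and 3 correlated by 0.456, 0.030 and 0.482 across conditions. Baseline replicates 1 and 3 correlated best with the complement library of their own number, the next values being 0.284 and −0.325. Baseline replicate 2 correlated best with complement replicate 3 (0.066), so these values did not decide the pairing. With a replicate block, 2515 of the 17512 genes tested were called (1871 higher, 644 lower). Of the 3 tested enzyme genes 1 was called (CMAH, LFC 1.01, edgeR adjusted p = 0.00860). Of 73 pathway genes 4 were called (SLC35A1, ST6GALNAC1, GALNT5 and MGAT5B). Of the cell type markers 9 were called, 7 lower (5 of them Sertoli cell markers, of which 10 were tested) and 2 higher (DHH and MARCO).

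Subtraction of the expected background moved the mean level of CMAH to 1.33 CPM per kb in baseline NPSC and 3.09 in complement NPSC, and that of ST3GAL1 in baseline NPSC to 29.9, and CPM by library total gave 29.6. Depth limits CMAH, with 36 to 77 counts per library and a counting CV of 15.4% in baseline NPSC and 13.1% in complement NPSC. ST6GAL1, GGTA1, B4GALNT2 and FUT1 gave no value under any setting.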
